A study of Anopheles gambiae with 36 samples.

Results

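The female ear of the malaria mosquito Anopheles gambiae was compared between the late afternoon, zeitgeber time (ZT) 8, and the start of dusk, ZT12. The comparison rests on 6 of the 36 libraries of the series, chosen by their labels alone, with 3 libraries for female ZT8 and 3 for female ZT12. Zeitgeber time counts hours from lights on. Mosquitoes of the Kisumu strain, 3 to 7 days old, were kept in 12 h of light and 12 h of darkness at a constant 28 °C and 80% humidity for 3 days and collected on day 4. Light was ramped over 1 h at both ends of the day, so that at ZT12 the fading of the light was only beginning. Each library pooled the second antennal segments of 35 females, and collection was repeated for each of the 3 libraries. No drug or mutation was used, and CO2 sedation preceded freezing. The other 30 libraries cover females at ZT0, ZT4, ZT16 and ZT20 and males at all 6 time points, collected in the same way. Females and males had been separated as pupae and emerged in different cages.

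The second antennal segment holds the Johnston's organ, the auditory organ of mosquitoes. Its ciliated mechanosensory neurons respond to movements of the antennal flagellum, and in mosquitoes it also receives efferent nerve fibres from the brain, whose transmitters can alter its mechanics. Anopheles mosquitoes mate in swarms at dusk, in which males find females by the sound of their wings. Daily rhythms of RNA in insect tissues are driven by a molecular clock, by light and by activity, and a comparison of 2 times of day does not separate these.

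The measurements were estimated read counts per annotated transcript. A suffix marks the isoform, so that AGAP013301-RA and AGAP013301-RB are transcripts of 1 gene. Levels are given as CPM, a transcript's counts per 1000000 counts of its library, scaled by the trimmed mean of M values (TMM) over the female libraries. CPM were not divided by transcript length, so they compare 1 transcript between libraries and not 1 transcript with another. The 3 ZT8 libraries held 13090100, 15886684 and 17205441 counts and the 3 ZT12 libraries 13747651, 14654578 and 14691181. Reads came from PCR-amplified cDNA without molecular identifiers. In pooled tissue, fewer cells of a type and less RNA per cell cannot be told apart. The table pairs no identifier with a gene name, so names were available only for the receptors listed in the study, and no marker of the Johnston's organ could be checked by name. The eye-type opsins, the light-sensing proteins of photoreceptor cells, were abundant. Their 10 transcripts took 27.2, 26.6 and 39.0% of all counts in ZT8 libraries 1 to 3. The corresponding shares at ZT12 were 9.37, 40.7 and 13.6%, against 1.39 to 13.7% in the 17 male libraries used.

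From ZT8 to ZT12 a small set of transcripts changed, and nearly all of it rose. Of 12322 transcripts tested, 28 passed an adjusted p of 0.05 in edgeR's quasi-likelihood test (0.227%). Among these, 25 were higher at ZT12 (0.203%) and 3 were lower (0.0243%). The 25 rose by 2.02-fold to 68.1-fold with a median of 3.62-fold, and 10 of them rose over 4-fold. The upper end, AGAP002905-RA, was 33.4-fold without ZT12 library 2. Their mean levels ran from 0.367 to 131 CPM at ZT8 and from 4.11 to 391 CPM at ZT12. Every one of the 28 was separated without overlap between the 3 ZT8 and the 3 ZT12 libraries. Over all tested transcripts this held for 8.25% in the higher direction and 4.39% in the lower. The 28 were chosen by p on these same libraries, which favours such a separation. The 28 transcripts came from 28 genes, and none of them was among the receptors that carry a name. Without adjustment, 1033 transcripts had a p under 0.05 (8.38%), 669 of them higher at ZT12 (5.43%) and 364 lower (2.95%). DESeq2's Wald test called 148 of the 12825 transcripts to which it gave an adjusted p (1.15%), 110 higher and 38 lower, with all 28 among them.

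The count depended on single libraries. Leaving out ZT8 library 2 raised it from 28 to 44. It fell to 8 without ZT8 library 1 and 12 without ZT8 library 3. Without ZT12 library 1 it was 9, without ZT12 library 2 it was 16 and without ZT12 library 3 it was 21. Other settings mattered as well. The 6 compared libraries fitted alone called none of the 28, with 657 transcripts at an unadjusted p under 0.05 (edgeR), and scaling by total counts called 12 of the 28. All 28 kept their direction in each of the 15 alternative settings run, and 8 were called in every fit that left out 1 of the 6 libraries. With the log2 summed opsin CPM of each library as a covariate, 21 of the 28 were called, and with the opsins removed 22 were.

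**Figure D1:**
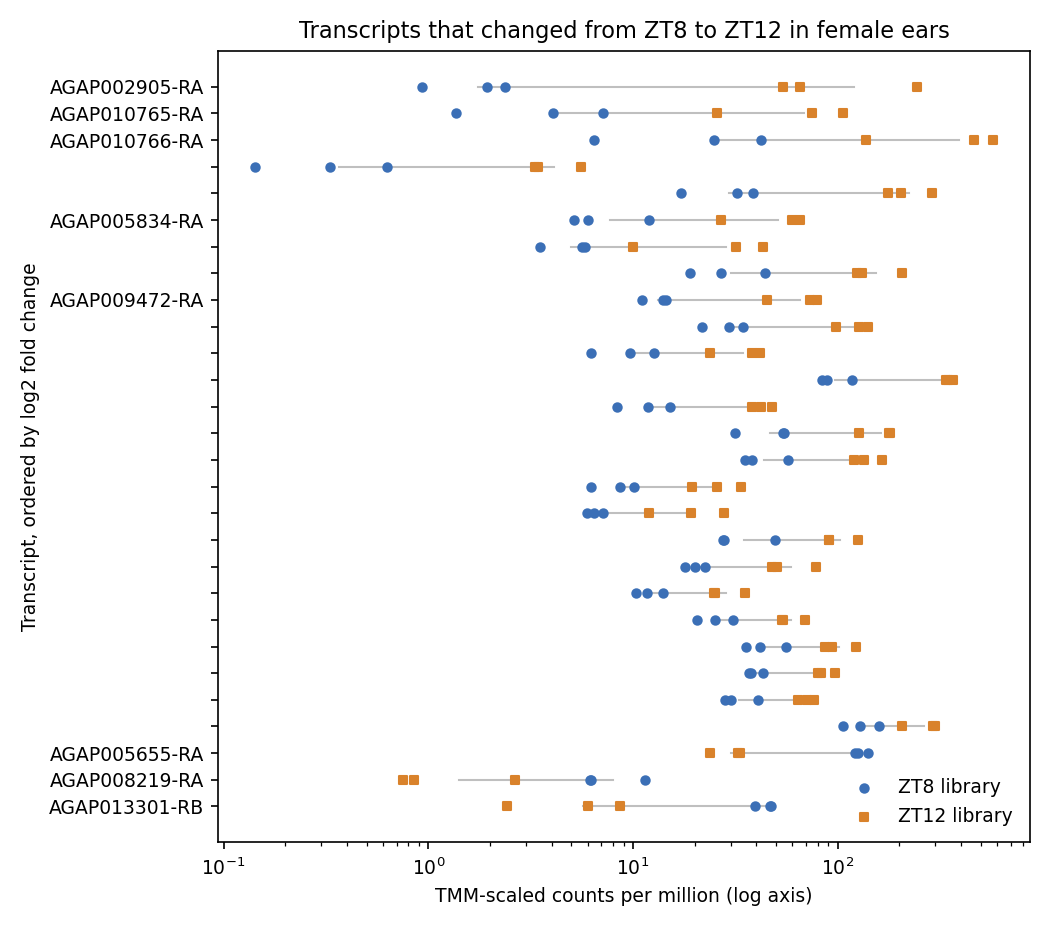
TMM-scaled CPM (horizontal log axis) of the 28 called transcripts in each of the 3 ZT8 libraries (blue circles) and 3 ZT12 libraries (orange squares), ordered by log2 fold change. Grey lines join the means of both times. In 25 transcripts every orange square lies to the right of every blue circle, and in the bottom 3 every square lies to the left.

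The largest rise among the 25 belonged to AGAP002905-RA. It stood at 0.931, 1.94 and 2.38 CPM in the ZT8 libraries and at 65.1, 242.5 and 54.1 CPM in the ZT12 libraries. The groups were far apart, although ZT12 library 2 held several times the level of the other two. The log2 fold change was 6.09 (SE 0.61, adjusted p = 0.000498, edgeR), or 5.06 without that library. Its female mean was lowest at ZT8. The other means were 37.8 CPM at ZT0, 5.34 at ZT4, 118 at ZT16 and 94.7 at ZT20 (n = 3 each).

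AGAP009472-RA, the other riser of lowest p, was tighter between libraries. It measured 14.5, 14.04 and 11.1 CPM at ZT8 and 79.2, 45.1 and 72.9 CPM at ZT12. The log2 fold change was 2.31 (SE 0.24, adjusted p = 0.000498, edgeR). Its mean remained near the dusk level at 54.7 CPM ± 8.92 (SD, n = 3) at ZT16 and 57.6 CPM ± 3.49 (SD, n = 3) at ZT20. It was back near the ZT8 level at ZT0 with 18.2 CPM ± 4.07 (SD, n = 3).

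The called transcripts held 2 pairs with consecutive identifiers. The pair AGAP010765-RA and AGAP010766-RA was singled out after its values were seen, because both members rose by about the same factor. The members of the other pair rose by 3.62-fold and 2.27-fold. AGAP010766-RA measured 24.9, 6.45 and 42.0 CPM at ZT8 and 463, 572 and 137 CPM at ZT12. Its log2 fold change was 4.0 (SE 0.69, adjusted p = 0.0266, edgeR). AGAP010765-RA measured 4.08, 1.37 and 7.14 CPM at ZT8 and 74.4, 106 and 25.7 CPM at ZT12. Its log2 fold change was 4.03 (SE 0.70, adjusted p = 0.0267, edgeR). In both, ZT8 library 2 was the lowest and ZT12 library 3 the lowest of its time. Whether reads fit both transcripts and were divided between them was not examined here. AGAP010766-RA was no longer called without ZT8 library 1, ZT12 library 1 or ZT12 library 2 (adjusted p = 0.185, 0.0998 and 0.0725, edgeR). AGAP010765-RA was lost without any 1 of these (adjusted p = 0.187, 0.0998 and 0.0805, edgeR) and without ZT8 library 2 or 3 (adjusted p = 0.0581 and 0.0514, edgeR).

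AGAP005834-RA, also chosen after its values were seen, rose in a narrow window. It measured 12.0, 6.05 and 5.16 CPM at ZT8 and 60.1, 26.8 and 65.5 CPM at ZT12. The log2 fold change was 2.72 (SE 0.35, adjusted p = 0.00243, edgeR). Its female means at the other times were 2.52 CPM at ZT0, 5.13 at ZT4, 7.80 at ZT16 and 4.295 at ZT20. Each ZT12 library lay above every library of the other 5 times. The remaining 20 risers changed by 2.02-fold to 10.8-fold, with adjusted p from 0.00231 to 0.0492 (edgeR).

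The 3 transcripts that fell were AGAP013301-RB, AGAP005655-RA and AGAP008219-RA, of which the last was named after its values were seen. AGAP005655-RA measured 122, 140 and 126 CPM at ZT8 and 33.5, 23.8 and 32.6 CPM at ZT12. It fell by 2.11 on the log2 scale (SE 0.24, adjusted p = 0.000907, edgeR). Its female means formed a day level and a night level. They were 131 CPM at ZT0 and 175 at ZT4, against 29.9 at ZT16 and 25.7 at ZT20.

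In AGAP013301 the fall concerned 1 of 3 isoforms. AGAP013301-RB measured 47.3, 39.6 and 46.4 CPM at ZT8 and 2.42, 8.67 and 5.999 CPM at ZT12. It fell by 2.97 on the log2 scale (SE 0.34, adjusted p = 0.000907, edgeR). The isoform AGAP013301-RA had means of 65.9 CPM ± 20.2 (SD, n = 3) at ZT8 and 54.8 CPM ± 5.44 (SD, n = 3) at ZT12. Its log2 fold change was -0.27 (SE 0.31, adjusted p = 0.862, edgeR). AGAP013301-RC had means of 43.8 CPM ± 16.2 (SD, n = 3) and 37.7 CPM ± 3.42 (SD, n = 3). Its log2 fold change was -0.22 (SE 0.33, adjusted p = 0.891, edgeR). The libraries of both isoforms overlapped between the times. The difference between isoforms was not tested, and reads shared by isoforms were divided among them by the quantification. AGAP013301-RB was also the lowest at ZT12 of all 6 times, with partial return to 17.8 CPM at ZT16, 16.5 at ZT20 and 24.97 at ZT0.

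AGAP008219-RA was the weakest of the 3 calls. It measured 6.23, 11.5 and 6.15 CPM at ZT8 and 0.850, 2.65 and 0.75 CPM at ZT12. It fell by 2.51 on the log2 scale (SE 0.48, adjusted p = 0.0492, edgeR). The call was lost without any 1 of ZT8 libraries 1, 2 and 3 (adjusted p = 0.141, 0.091 and 0.0928, edgeR), and also without ZT12 library 1 or 3 (adjusted p = 0.251 and 0.201, edgeR).

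The other female time points, which took no part in the contrast itself, place the rise within the day, although every ratio to ZT8 uses the ZT8 libraries that helped to choose the risers. The ZT12 mean was the highest of the 6 in 22 of the 25 risers, against 23.2% of all tested transcripts, as a choice of high ZT12 values favours. The ZT16 mean remained above the ZT8 mean in all 25, against 49.7% of all tested transcripts. In 20 of them every ZT16 library lay above every ZT8 library, which held for 5.03% of all tested. In 16 the ZT16 mean was still above the midpoint between ZT8 and ZT12. At ZT20 this was so for 12, at ZT0 for 1 and at ZT4 for 0. The median log2 ratio to the ZT8 mean was 1.37 at ZT16, 1.48 at ZT20, 0.41 at ZT0 and -0.07 at ZT4. The lowest female mean fell at ZT4 in 11, ZT8 in 10 and ZT0 in 4. In 12 of the 25, every ZT12 library exceeded all other female libraries, against 1.45% of all tested. A choice of high ZT12 values favours this too. The 12 are not a count of transcripts high at dusk alone. AGAP005834-RA is among them, but so is AGAP011925-RA, chosen after its values were seen. The means of AGAP011925-RA were 29.97 CPM at ZT8, 154.0 at ZT12, 100.8 at ZT16 and 85.52 at ZT20. The risers included transcripts high at dusk alone, such as AGAP005834-RA, and transcripts high through the night, such as AGAP009472-RA. How many belonged to each kind was not tested.

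**Figure D2:**
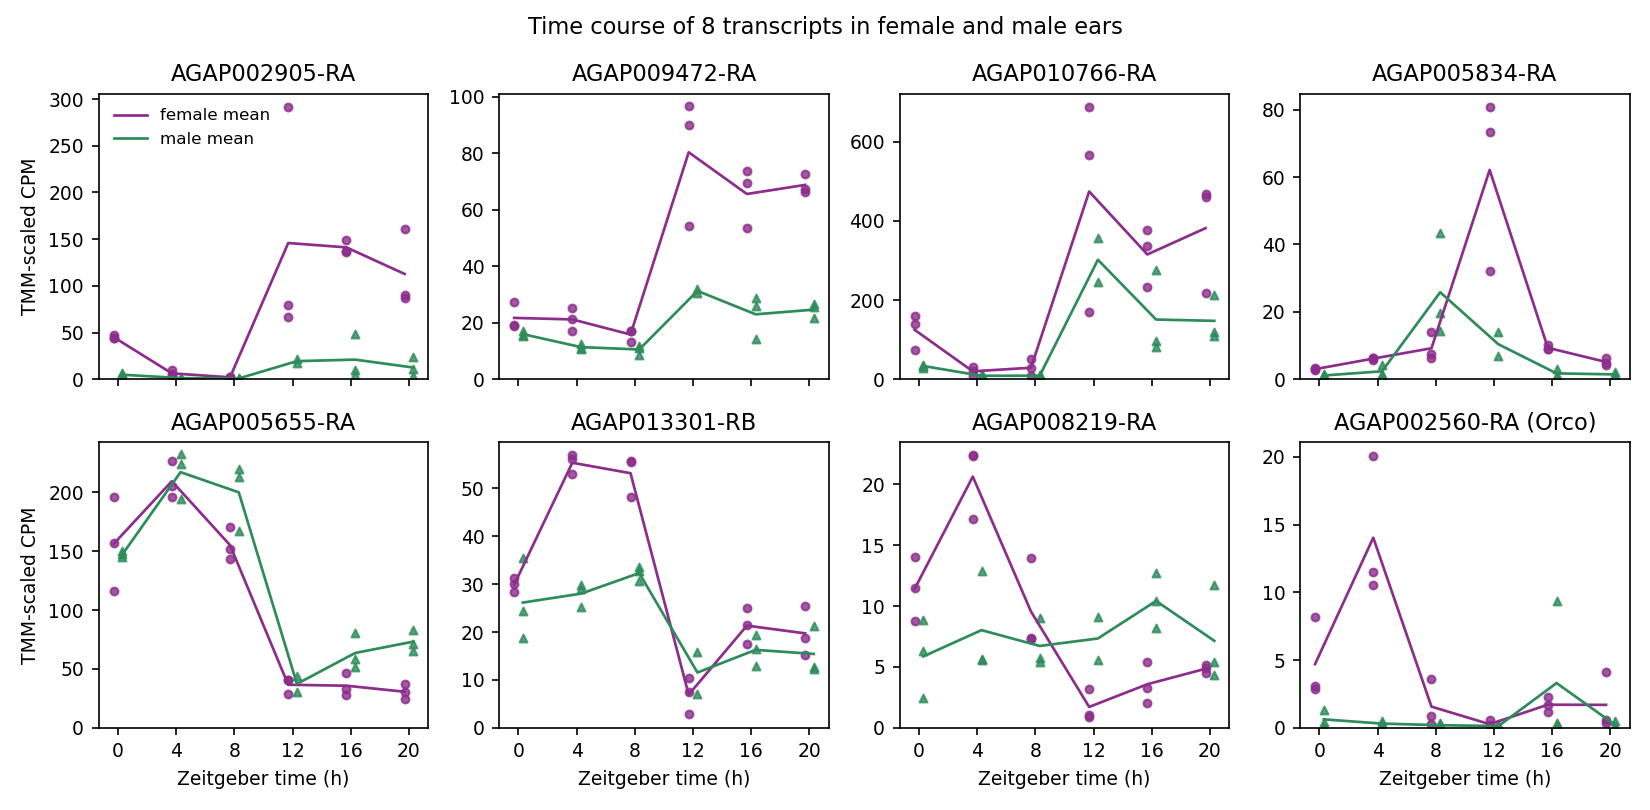
TMM-scaled CPM over 6 zeitgeber times for 7 called transcripts and for Orco, with each library as a point (female purple circles, male green triangles) and lines through the means, scaled over both sexes. There are 3 libraries per sex and time, except 2 for males at ZT12. AGAP005834-RA has a female peak at ZT12 alone, while AGAP009472-RA and AGAP010766-RA stay high at ZT16 and ZT20, and AGAP005655-RA is low from ZT12 to ZT20 in both sexes.

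Male ears served as a comparison for the same interval. They were fitted jointly with the female libraries, without the male ZT12 library that was discarded in the study, so that males had 3 libraries at ZT8 and 2 at ZT12. In males, 20 of 12898 transcripts were called (0.155%), 13 higher and 7 lower, and 554 had an unadjusted p under 0.05 (4.3%). The joint fit called 98 in females (0.76%). Of the 28 transcripts, 24 had the same sign in males, 22 of the 25 risers among them. Over all 12898 transcripts the same sign was shared by 56.6%. Male libraries did not overlap in the female direction in 21 of the 28, against 9.27% of all transcripts for higher and 10.3% for lower. In males 10 of the 28 were themselves called, 9 risers and AGAP005655-RA. The median log2 fold change of the 25 risers was 1.18 in males and 1.88 in females in this fit, where the females had chosen them. Means were highest at ZT12 in males for 16 of the 25, against 22.3% of all transcripts.

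AGAP005655-RA fell in both sexes, by 2.08 on the log2 scale in females and by 2.42 in males (SE 0.22 and 0.26, adjusted p in males = 4.32e-06, edgeR). AGAP002905-RA rose in males from 1.34, 0.658 and 0.663 CPM to 17.4 and 21.4 CPM, on the scale over both sexes. The male log2 fold change was 4.46 (SE 0.81, adjusted p = 0.00705, edgeR). The male rises of AGAP010766-RA and AGAP010765-RA were 5.05 and 5.44 on the log2 scale (adjusted p = 0.000233 and 0.000318, edgeR). These transcripts therefore changed in both sexes.

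Whether the change differed between the sexes was tested directly, as the female minus the male log2 fold change. Of 12898 transcripts, 1 passed an adjusted p of 0.05 (0.00775%), and it was not among the 28. Without female ZT12 library 2 there were 3 calls, of which 1 was among the 28 (adjusted p = 0.047, edgeR). The female change that chose the 28 is part of this difference, which favours small p among them. Of the 28, 13 had an unadjusted p under 0.05 (4.9% of all transcripts). AGAP005834-RA had the largest difference among them. On the scale over both sexes its females went from 14.1, 7.36 and 6.197 CPM to 73.4, 32.2 and 80.8 CPM. Its males measured 43.4, 19.7 and 14.4 CPM at ZT8 and 13.9 and 6.86 CPM at ZT12, with a log2 fold change of -1.31 (SE 0.58, adjusted p = 1.00, edgeR). The difference was 4.07 on the log2 scale (SE 0.80, adjusted p = 0.111, edgeR). The male mean was highest at ZT8 with 25.8 CPM and the female mean at ZT12. AGAP008219-RA, which fell in females, had a male log2 fold change of 0.13 (SE 0.53, adjusted p = 1.00, edgeR). Its difference of -2.62 had an adjusted p of 0.554 (edgeR).

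**Figure D3:**
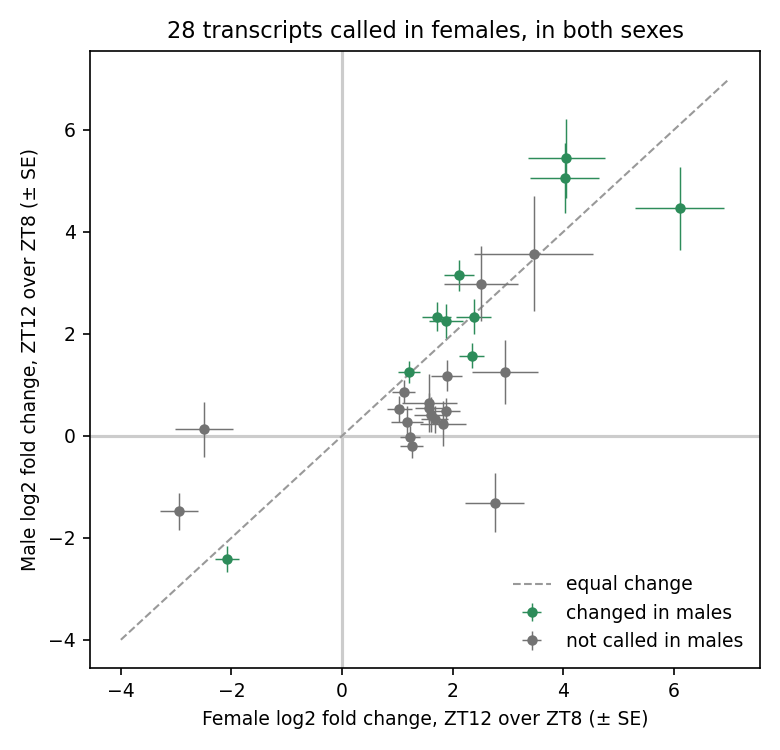
Log2 fold change from ZT8 to ZT12 in females (horizontal) and males (vertical) for the 28 transcripts called in females, from the joint fit, with bars of 1 SE. Green points are the 10 called in males too, and the dashed line marks equal change. AGAP005834-RA lies at a female value of 2.76 and a male value of -1.31, apart from the other points.

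The receptors through which transmitters and hormones act on the ear were examined as a list. It holds 172 transcripts of 151 genes, which the study drew from these libraries by their annotated activity. For Orco and GluRIIA, both on the list, the study reported cycling expression over the day in females. The contrast here covers ZT8 and ZT12 only. None of the 170 listed transcripts tested was called, where 0.227% of all transcripts were, and the lowest adjusted p was 0.462 (edgeR). DESeq2 called none either. Without adjustment 8 had a p under 0.05 (4.71%, against 8.38% of all transcripts), 2 higher (1.18% against 5.43%) and 6 lower at ZT12 (3.53% against 2.95%). Most estimates lay below 0, with 134 lower and 36 higher and a median log2 fold change of -0.49. Over all tested transcripts 6202 were lower and 6120 higher, with a median of -0.004. The groups did not overlap in 3 receptors for higher (1.76%, against 8.25% of all transcripts) and in 8 for lower (4.71% against 4.39%). In males the median of the same receptors was -0.04, with 94 lower and 74 higher, and 0 were called. No receptor's change differed between the sexes at the adjusted threshold, while 6 had an unadjusted p under 0.05.

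This median depended on individual libraries, which also differed in opsin share. The median of 160 receptors without the opsins was taken per library as a log2 ratio to the ZT8 mean, with 0.5 CPM added to each value. It was 0.02, -0.80 and 0.30 in ZT8 libraries 1 to 3 and -0.91, -0.16 and -0.61 in ZT12 libraries 1 to 3. ZT8 library 2 thus lay below 2 of the ZT12 libraries. ZT12 library 2 combined the highest ZT12 receptor level with the highest opsin share, and ZT12 library 1 the lowest of both. At ZT8, library 3 had the highest of both. ZT8 libraries 1 and 2, however, had similar opsin shares of 27.2 and 26.6% with receptor medians of 0.02 and -0.80. The median log2 fold change of the list was -0.17 without ZT8 library 3, -0.30 without ZT12 library 1, -0.72 without ZT8 library 2 and -0.81 without ZT12 library 2. With the opsin level as a covariate it was -0.33. The part of the opsin-bearing tissue in these values was not tested.

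**Figure D4:**
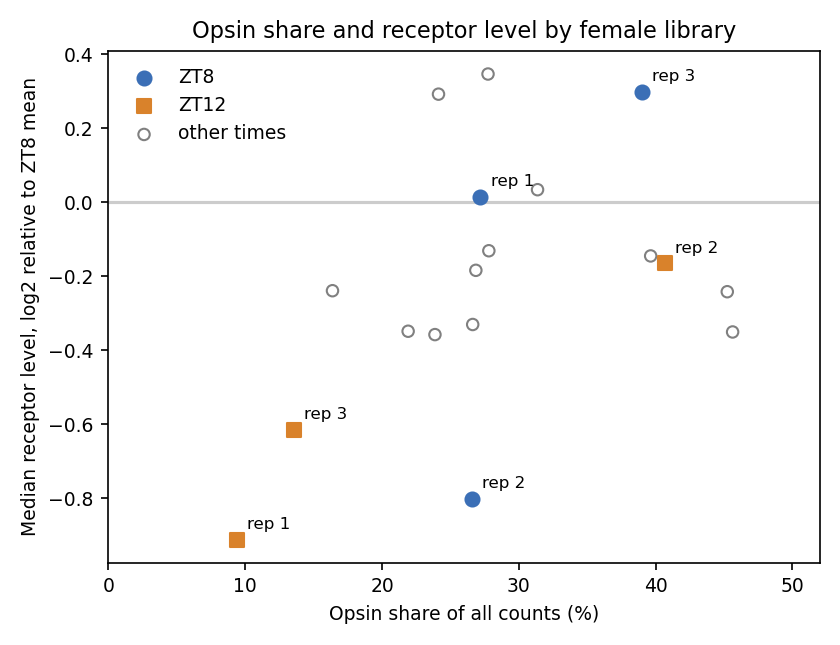
Opsin share of all counts (horizontal, percent) against the median level of 160 receptors relative to the ZT8 mean (vertical, log2) for the 18 female libraries. ZT8 libraries are blue circles, ZT12 libraries orange squares and the other times open circles. ZT12 libraries 1 and 3 sit at opsin shares of 9.37 and 13.6% with receptor medians of -0.91 and -0.61, and ZT12 library 2 at 40.7% and -0.16.

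Octopamine, the insect relative of noradrenaline, acts through alpha-like and beta-like G protein-coupled receptors. The list groups 12 transcripts as octopamine or adrenergic receptors, and the group is not limited to receptors for octopamine. None of the 12 was called, and their median log2 fold change was -0.53. The alpha-like receptor Oamb has 2 listed isoforms whose estimates pointed in opposite directions. AGAP000045-RA measured 13.1, 13.1 and 12.6 CPM at ZT8 and 5.36, 7.25 and 10.7 CPM at ZT12. The groups did not overlap, and the log2 fold change was -0.73 (SE 0.43, adjusted p = 0.701, edgeR). AGAP000045-RB measured 6.02, 2.85 and 3.84 CPM at ZT8 and 4.71, 7.96 and 10.7 CPM at ZT12. The groups overlapped, and the log2 fold change was 0.88 (SE 0.52, adjusted p = 0.706, edgeR). In males the estimates for these isoforms had the same signs, -0.60 and 0.78. The beta-like receptor Octβ2R (AGAP002886-RA) measured 68.0, 39.1 and 63.0 CPM at ZT8 and 44.1, 41.3 and 58.9 CPM at ZT12. Its log2 fold change was -0.24 (SE 0.27, adjusted p = 0.861, edgeR), and it ran from -0.45 to -0.09 when 1 library was left out.

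Serotonin receptors had a median log2 fold change of -0.71 over 11 transcripts. The serotonin receptor 5-HT7 (AGAP004222-RA) measured 48.6, 33.2 and 51.98 CPM at ZT8 and 25.2, 35.4 and 36.4 CPM at ZT12. Its log2 fold change was -0.46 (SE 0.21, adjusted p = 0.589, edgeR). All 13 acetylcholine receptor transcripts had negative estimates, with a median of -0.85, and so had all 11 tested GABA receptor transcripts, with a median of -0.70. None was called. The GABA group holds isoforms of the same genes, and the acetylcholine and serotonin groups overlap, so these signs are not independent. In the acetylcholine receptor subunit nAChRα5 (AGAP008588-RA), chosen after its values were seen, the levels were 165, 23.6 and 163 CPM at ZT8 and 33.9, 81.0 and 39.5 CPM at ZT12. ZT8 library 2 was the lowest of the 6 in this transcript, as it was for the receptor list within ZT8.

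Glutamate excites or inhibits cells through cation channels, chloride channels and G protein-coupled receptors. The ionotropic subunit GluRIIA (AGAP000803-RA) had the lowest p of the whole list. It measured 15.8, 20.6 and 10.5 CPM at ZT8 and 33.9, 23.0 and 33.3 CPM at ZT12. The groups did not overlap, but the log2 fold change of 0.94 (SE 0.36) had an adjusted p of 0.462 (edgeR). Its female means were 10.7 CPM at ZT0, 14.9 at ZT4, 23.3 at ZT16 and 23.1 at ZT20, so that ZT12 was the highest. The male estimate was 0.24 (SE 0.34, adjusted p = 1.00, edgeR). The glutamate-gated chloride channel GluClα (AGAP001434-RB) had a log2 fold change of -1.45 (SE 0.58, adjusted p = 0.498, edgeR). Over the 19 transcripts grouped as glutamate receptors the median was -0.17. Some glutamate receptors coupled to G proteins were grouped with the other G protein-coupled receptors and are outside the 19.

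Among the receptors for peptides, which had a median of -0.30 over 26 transcripts, and the 59 other G protein-coupled receptors, with -0.46, 5 were named. The tachykinin receptor TkR99D (AGAP001592-RA) had a log2 fold change of -0.79 (SE 0.31, adjusted p = 0.466, edgeR) without overlap between the groups. The calcitonin-like receptor CL R3 (AGAP003654-RA) had -1.43 (SE 0.61, adjusted p = 0.545, edgeR). Another calcitonin-like receptor, CL R1 (AGAP009770-RA), had 1.76 (SE 0.66, adjusted p = 0.462, edgeR). The level of CL R1 was highest in ZT12 library 1, at 73.0 CPM, while the other ZT12 libraries held 19.6 and 11.1 CPM. The ZT8 libraries held 10.96, 6.05 and 13.7 CPM, and the groups overlapped. Its fold change without ZT12 library 1 was not examined. The capa peptide receptor CAPA R2 (AGAP001961-RA) measured 16.2, 15.4 and 13.7 CPM at ZT8 and 21.0, 20.9 and 26.1 CPM at ZT12, with a log2 fold change of 0.59 (SE 0.29, adjusted p = 0.618, edgeR). The methuselah-like receptor GPRMTH6 (AGAP004026-RA) had 0.48 (SE 0.29, adjusted p = 0.711, edgeR).

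Receptors of other senses were also without a call. Orco (AGAP002560-RA), the co-receptor that odorant receptors need to form a channel, was close to the limit of detection. It had 10, 4 and 45 counts in the ZT8 libraries and 0, 2 and 9 counts in the ZT12 libraries. The count of 0 allows up to 0.196 CPM (3 counts), for counting error only. The log2 fold change was -2.47 (SE 1.12, adjusted p = 0.575, edgeR), and libraries of both times overlapped. The value was -0.998 without ZT8 library 3, -3.88 without ZT12 library 3 and -1.11 with the opsin level as a covariate. Its female mean was higher earlier in the day, at 11.7 CPM at ZT4 and 3.94 CPM at ZT0. The 10 opsin transcripts had a median log2 fold change of -0.40, with wide spread. The most abundant of them, AGAP013149-RA, named after its values were seen, measured 130900 CPM in ZT8 library 1. It measured 271400 CPM in ZT12 library 2, but 40600 CPM in ZT12 library 1. The summed opsin share lay below every ZT8 library in ZT12 libraries 1 and 3, at 9.37 and 13.6%. In ZT12 library 2 it lay above every ZT8 library, at 40.7%. CRY1 (AGAP001958-RA), also named after its values were seen and a cryptochrome that senses blue light and resets the clock in Drosophila, measured 113, 111 and 145 CPM at ZT8 and 109, 138 and 125 CPM at ZT12, with a log2 fold change of 0.01 (SE 0.18, adjusted p = 0.993, edgeR).

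**Figure D5:**
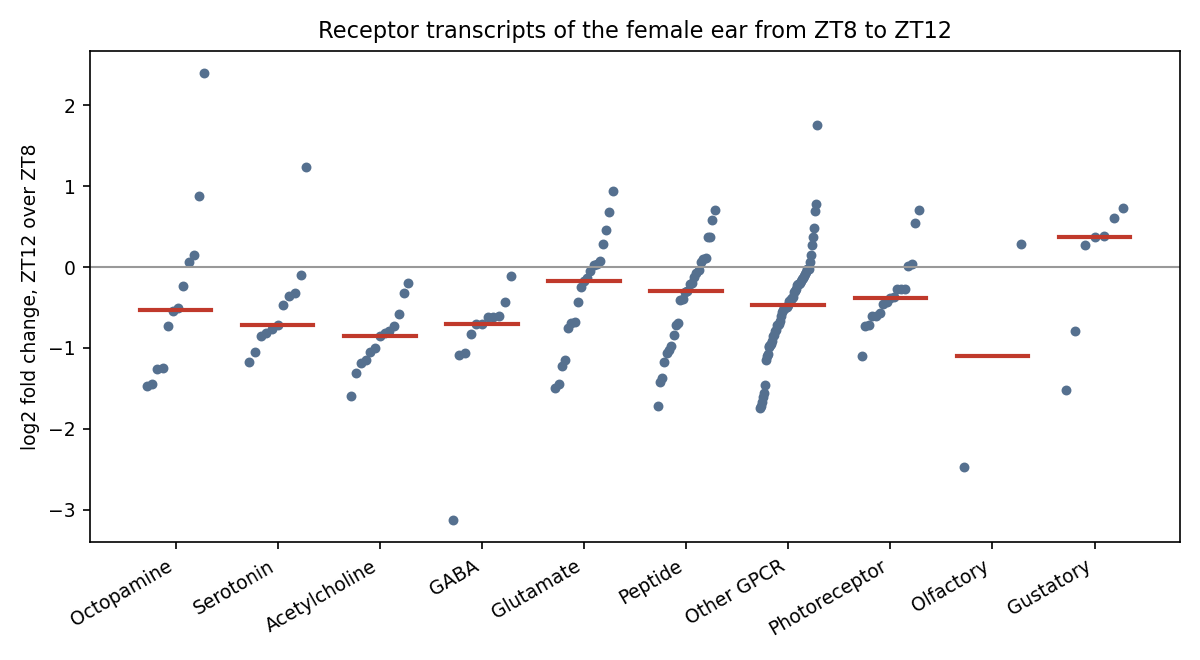
Log2 fold change from ZT8 to ZT12 in female ears (vertical) for each tested receptor transcript, grouped by annotated activity, with the group median as a red line. No point was called, and the octopamine group includes adrenergic receptors. All 13 acetylcholine and all 11 GABA receptor points lie below 0, and the medians run from -1.09 for the 2 olfactory transcripts to 0.38 for the 7 gustatory ones.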

How the data were processed

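RNA from pooled second antennal segments was amplified with the SMART-Seq v4 kit and read as paired ends of 38 bp. The authors assigned reads with Kallisto 0.46.0 to VectorBase release 53 transcripts and deposited 1 table of estimated counts per transcript without normalization, with 15863 transcripts, 13832 genes and 0 unmatched library columns. Kallisto's options are not given in the sources used here.

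Counts were rounded and tested with edgeR 4.0.16 in R 4.3.3 (filterByExpr, TMM, quasi-likelihood F-test, 18 female libraries with the 6 time points as groups, contrast ZT12 minus ZT8). Adjusted p-values are Benjamini-Hochberg over all transcripts tested. Standard errors were derived from the size of each log2 fold change and its F value, as their ratio after taking the root of F. The biological coefficient of variation was 0.468. Male changes and the sex difference came from 35 libraries fitted together. Male ZT12 replicate 3 was left out, being the discarded library, which the study's own columns matched to replicates 1 and 2 only. DESeq2 1.42.0 was an alternative, and the authors used DESeq2 1.36.0. No 2 libraries of female ZT8 or ZT12 were copies (chi-square per degree of freedom 105 to 573, transcripts with at least 50 counts). The main fit did not pair samples by replicate number (closing section). The scripts were also run on simulated data, which does not measure how reliable the calls in these libraries are.

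The named receptors were the 5 of lowest p in each direction, plus Oamb, Octβ2R, Orco and GluRIIA, and 3 others (nAChRα5, CRY1 and an opsin) were added after their values were seen. Of unnamed identifiers, the rule takes 2 of lowest p per direction, and others are marked in the text. Members and lists were chosen with earlier results of these data known, and the study chose the receptor list on these libraries. Search patterns for clock, phototransduction, heat shock, mechanosensory, cuticle, immune and other genes matched none of the receptor names, so those lists give no result. The opsins and CRY1 were not found by these patterns and are given with the receptors. For chemosensory genes 4 names matched, with 0 calls. No coordinates or sequences were used, since 0 identifiers matched the RefSeq table.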

Additional observations from a re-analysis of the deposited data

Results flagged for a closer look

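The change from ZT8 to ZT12 differed between the sexes in 1 of 12898 transcripts (0.00775%, joint edgeR fit), AGAP002322-RA. In females it measured 3.37, 3.19 and 3.26 CPM at ZT8 and 3.99, 4.25 and 2.78 CPM at ZT12, on the scale over both sexes. In males it measured 11.9, 8.70 and 8.78 CPM at ZT8 and 0.443 and 0.670 CPM at ZT12. The female log2 fold change was 0.16 (SE 0.43, adjusted p = 0.914, edgeR) and the male one was -4.11 (SE 0.58, adjusted p = 0.000309, edgeR). The difference was 4.28 on the log2 scale (SE 0.69, adjusted p = 0.0204, edgeR). It was called no longer without any 1 of female ZT8 libraries 1, 2 and 3 (adjusted p = 0.0663, 0.0727 and 0.0849, edgeR) or without female ZT12 library 1 (adjusted p = 0.0617, edgeR). With the discarded male ZT12 library included, the difference was 1.80 with an adjusted p of 0.346 (edgeR). Males had 2 libraries at ZT12 in this fit. The transcript was chosen after its values were seen.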

How the results depend on the processing

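The main count was 28 calls, 25 higher and 3 lower. Scaling by total counts gave 16 calls, 13 of them higher. DESeq2's Wald test gave 148, 110 higher and 38 lower. The 6 libraries fitted alone gave 0 calls, 0 higher and 0 lower, with 657 transcripts at an unadjusted p under 0.05 (edgeR). With the opsin level as a covariate 9 were lower, among 41 calls. The joint fit with males, added after the data were seen, gave 98, 84 higher and 14 lower. Leaving out 1 library gave 8 to 44 calls, 6 to 41 of them higher. With a replicate block there were 17 calls, 14 of them higher, and 16 of the 28. The library labels number the replicates in consecutive blocks across times and sexes, and what a block shared is not stated. Same-numbered deviations had correlations of -0.01, -0.41 and -0.20, and no number correlated best with its own. Deviations from a mean of 3 libraries are not independent, so these values cannot exclude a batch shared by a replicate number. The sex difference gave 1 call, 0 with all 36 libraries, 5 with a replicate block, 2 of them among the 28 (lowest adjusted p = 0.0258, edgeR), and 0 to 3 without 1 female library. The share of higher calls was 89.3%, 74.3% with DESeq2's test, 78.0% with the opsin covariate, and 75.0 to 93.2% without 1 library. No value reversed. Of the 28 transcripts, 7 were called in all 14 alternatives other than the 6-library fit. Receptors had 0 calls in each of these settings for which they were counted. The causes were not tested.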
